A study of Mus musculus with 9 samples.

Results

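Pla1a, Plau, Smpdl3b, Plekhg1, Ifrd1, Zbtb7c and Eno2 are 7 genes whose messenger RNA was higher than in unstimulated wild-type dendritic cells both in wild-type and in STING knockout cells that had received tumor DNA. They were chosen on those same differences in these arrays, so their distance above media describes the choice and supports nothing further. They are 7 of 12586 genes measured above a limit on dim signals, and all 11 probe sets that the platform annotation gives to 1 of these symbols alone were taken. Of the 11 probe sets, 9 passed that limit, which was the 40th percentile of mean log2 signal over all probe sets. For each gene the probe set with the highest mean signal is described first and the others beside it.

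DNA in the cytosol is bound by the enzyme cGAS, which makes a cyclic dinucleotide that activates STING, an adaptor protein of the endoplasmic reticulum. STING recruits the kinase TBK1, and the transcription factors IRF3 and NF-kappaB then switch on type I interferon and cytokine genes. Dendritic cells also hold DNA sensors that do not pass through STING, and a lipid transfection reagent can itself change a cell, so a gene can differ from media in cells that lack this adaptor.

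Affymetrix mouse arrays were hybridised with biotin-labelled cRNA from 9 samples of dendritic cells grown out of bone marrow under GM-CSF, a haematopoietic growth factor, in cultures kept for 9 to 12 days. All came from the 129/SvEv strain background, and 6 ug of total RNA went into each labelling. The 3 groups were wild-type cells without stimulation (media), wild-type cells given purified tumor cell DNA with a lipofection reagent for 7 h, and STING knockout cells given the same DNA in the same way. Each group holds 3 arrays, numbered 1 to 3 by their titles, and no label ties them to different mice or cultures. A p-value here therefore covers the spread among these arrays, which may be technical. Unstimulated knockout cells, and cells that met the reagent without DNA, were not analysed here. The knockout genotype, the DNA and the reagent therefore cannot be told apart in the difference between knockout cells with DNA and wild-type cells in media. In such bulk samples fewer cells of a type and less RNA per cell cannot be told apart either.

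The labels were checked on Sting1, the targeted gene, whose brighter probe set had signals of 1520, 1080 and 646 in media, 2260, 1060 and 1160 in wild-type DNA arrays, and 246, 336 and 327 in the knockout arrays. The knockout arrays were the lowest and overlapped neither other group. Of 12 dendritic cell markers, Itgax (4110 to 6170) and the class II genes were bright in all 9 arrays, whereas others of the list were dim: Flt3 at 5.74 to 55.1, Xcr1 at 2.29 to 88.8, Cd209a at 17.6 to 184 and Zbtb46 at 54.1 to 226. Macrophage markers, which such cultures also hold, were present too, with summed signals of 72300 to 147000 over the 9 arrays. In each group that sum was highest in number 1 and lowest in number 2. Of these markers Apoe had 12700, 5.65 and 4910 in media, 9950, 10.4 and 2000 in wild-type DNA arrays, and 8750, 69.0 and 4910 in knockout arrays. Fibroblast and neutrophil marker sums also moved with the array number, and plasmacytoid dendritic cell, mast cell, and T and NK cell sums with the groups. These sums are given beside the genes they touch. Signals were scaled by the authors to 1 common trimmed mean, 499.8, and the spiked bacterial control BioB was brighter in the arrays numbered 1 (406 to 552) than in the other 6 (115 to 189). Arrays of the same number deviated from their group means together (r of 0.17 to 0.49 over all genes tested, 9 pairs of arrays). The fit with the array number as a block is therefore given where it changes a call.

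The regulatory sequences of 4 of the 7 genes are shown first, because they let a reader see whether genes with a like pattern share letters at their starts. The sequences of Pla1a, Plau and Zbtb7c are not reported here, so the motif counts below cover only the 4 shown. RefSeq windows on GRCm38.p6 run from 250 bases before to 50 bases after each annotated start, 5′ to 3′ on the gene's strand, with every match to a searched motif in capitals. Smpdl3b and Ifrd1 have their windows at chr4:132757122-132757421 and chr12:40223140-40223439, both on the minus strand. That of Eno2 is at chr6:124769624-124769923 on the minus strand. The window of Plekhg1 is at chr10:3872417-3872716 on the plus strand, inside the annotated span of the gene (10, 3740251 to 3967303), so it belongs to an internal start.
Smpdl3b: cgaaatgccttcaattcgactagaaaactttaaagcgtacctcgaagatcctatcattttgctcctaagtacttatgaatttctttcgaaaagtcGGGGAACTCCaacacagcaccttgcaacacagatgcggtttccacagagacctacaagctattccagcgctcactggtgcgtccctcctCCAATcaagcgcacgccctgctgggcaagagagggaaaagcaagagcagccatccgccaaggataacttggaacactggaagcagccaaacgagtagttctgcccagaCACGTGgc
Plekhg1: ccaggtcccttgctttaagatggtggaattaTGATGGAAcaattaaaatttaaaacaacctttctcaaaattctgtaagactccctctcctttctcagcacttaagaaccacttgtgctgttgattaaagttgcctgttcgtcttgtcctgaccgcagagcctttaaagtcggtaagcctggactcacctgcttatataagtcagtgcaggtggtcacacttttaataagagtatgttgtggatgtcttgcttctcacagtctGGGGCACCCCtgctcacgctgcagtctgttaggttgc
Ifrd1: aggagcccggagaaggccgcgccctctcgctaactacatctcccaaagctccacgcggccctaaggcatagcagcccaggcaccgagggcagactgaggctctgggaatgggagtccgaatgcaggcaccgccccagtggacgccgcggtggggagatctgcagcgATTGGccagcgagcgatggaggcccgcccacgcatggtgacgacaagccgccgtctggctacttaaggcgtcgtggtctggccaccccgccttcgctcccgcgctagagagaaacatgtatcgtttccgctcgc
Eno2: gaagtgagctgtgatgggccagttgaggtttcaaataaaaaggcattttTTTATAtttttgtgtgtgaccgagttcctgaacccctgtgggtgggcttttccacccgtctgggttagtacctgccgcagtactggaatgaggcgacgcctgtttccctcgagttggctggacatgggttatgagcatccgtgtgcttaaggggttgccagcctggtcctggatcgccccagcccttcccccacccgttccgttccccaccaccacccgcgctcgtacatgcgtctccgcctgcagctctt

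Both strands were searched, and a match is a description of letters. The 10-base NF-kB consensus, which binds Rel family proteins, matched in 2 of the 4 windows, against 8.46% of all 32851 RefSeq windows. It lay at position 14 in Plekhg1, where both strands matched the consensus over the same 10 bases, and at position -155 in Smpdl3b, counting the annotated start as 1 and the base before it as -1. Plekhg1 also held the C/EBP-ATF element TGATGNAA at -219, found in 3.97% of windows. Smpdl3b held a CCAAT box at -66 and the E-box CACGTG at 43, and the hypoxia response core ACGTG matched only inside that E-box, once on each strand. CCAAT was in 37.4% of windows, CACGTG in 7.15% and ACGTG in 19.6%. Ifrd1 had 1 match, a CCAAT box on the opposite strand at -84. Eno2 had 1 match too, TATAAA on the opposite strand at -201, and 13.6% of windows hold those letters. The interferon-stimulated response element (3.44% of windows), the STAT element TTCNNNGAA (8.3%), the AP-1 element TGANTCA (7.81%) and the cyclic AMP response element TGACGTCA (1.79%) had no match in these 4 windows. No motif was shared by all 4. GC content ranged from 44.3% in Plekhg1 to 65.7% in Ifrd1, around a median of 52.7% for all windows.

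The genes do not neighbour each other: the annotation puts each on a chromosome of its own. Pla1a lies on chromosome 16 (38396117 to 38433191), Plau on 14 (20836662 to 20843388), Smpdl3b on 4 (132732966 to 132757171) and Plekhg1 on 10. Ifrd1 lies on chromosome 12 (40203129 to 40223189), Eno2 on 6 (124760053 to 124769673) and Zbtb7c on 18.

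Pla1a, a secreted phospholipase that cuts a fatty acid from phosphatidylserine and leaves lysophosphatidylserine, stood the furthest above media of the 7 and differed most between the genotypes. Its signals were 73.0, 66.6 and 85.0 in media. Wild-type cells with tumor DNA had 1090, 1010 and 885. Knockout cells with tumor DNA had 164, 367 and 336. The 3 groups did not overlap: every knockout array lay above every media array and below every wild-type DNA array. On the log2(signal + 16) scale on which all differences are given, wild-type cells were 3.48 ± 0.28 (SE, n = 3 per group) above media, 11.2-fold, and knockout cells 1.68 ± 0.28, 3.20-fold. By array number the knockout difference was 1.02, 2.21 and 1.80, so number 1 was the smallest, whereas the wild-type difference was 3.64, 3.64 and 3.16.

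**Figure D1:**
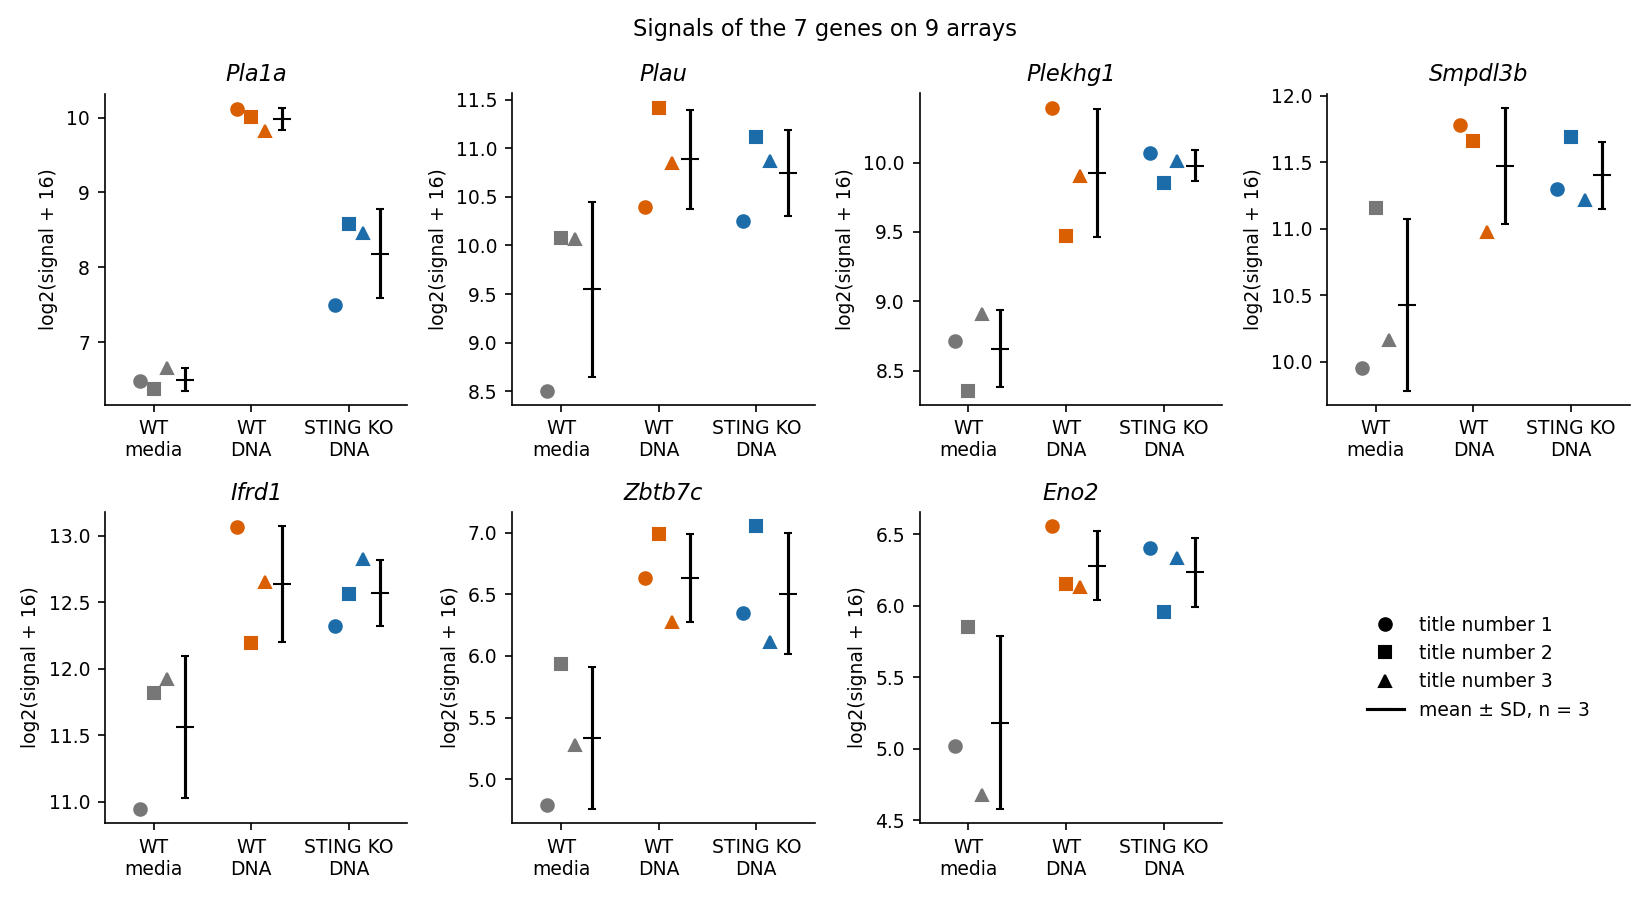
The y axes give log2(signal + 16) of the brightest probe set of each of the 7 genes in wild-type media, wild-type tumor DNA and STING knockout tumor DNA arrays; points are single arrays, shaped by title number, and bars are mean ± SD (n = 3). For Pla1a the 3 groups are separate, with the knockout arrays (signals of 164 to 367) between media and wild-type DNA arrays; for the other 6 the 2 tumor DNA groups overlap.

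Plau is urokinase, a secreted serine protease that turns plasminogen into plasmin. Its signals were 348, 1060 and 1060 in media, 1330, 2720 and 1830 in wild-type DNA arrays, and 1200, 2210 and 1860 in knockout DNA arrays. Every DNA array of both genotypes lay above every media array, and the 2 DNA groups overlapped almost fully. Array number 1 was the lowest of each group. The difference from media was 1.34 ± 0.43 (SE, n = 3 per group) in wild-type and 1.20 ± 0.43 in knockout cells. Within array numbers it was 1.89, 1.35 and 0.78 in wild-type cells and 1.74, 1.05 and 0.81 in knockout cells, of like size in both genotypes within each number.
Without the first media array the Plau differences were 0.82 and 0.68. The second probe set of Plau had 144, 481 and 302 in media, 560, 1000 and 725 in wild-type DNA arrays and 447, 899 and 575 in knockout DNA arrays. It gave 1.37 and 1.10 above media, and there the lowest knockout array lay under the highest media array. Fibroblast-type markers, 9 genes summed (8 of them above the limit on dim signals), were 7200, 1170 and 931 in media, 6180, 1310 and 1140 in wild-type DNA arrays and 8540, 1480 and 4880 in knockout arrays. They were thus highest in the arrays of number 1, where Plau was lowest; their part in the result was not tested.

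Smpdl3b, a membrane-anchored phosphodiesterase of the acid sphingomyelinase family known to restrain Toll-like receptor signalling, had signals of 979, 2270 and 1130 in media. Wild-type DNA arrays had 3510, 3230 and 2000, and knockout DNA arrays 2510, 3280 and 2360. The second media array lay above the third wild-type DNA array, so wild-type cells overlapped with media, whereas all knockout arrays lay above all media arrays. The difference from media was 1.05 ± 0.32 (SE, n = 3 per group) in wild-type and 0.97 ± 0.32 in knockout cells. By number it was 1.82, 0.50 and 0.81 in wild-type cells and 1.34, 0.53 and 1.05 in knockout cells. Without the arrays of number 1 the wild-type difference was 0.66 and the knockout difference 0.79. Neutrophil markers, 9 of 11 listed genes with a probe set, also varied by number: their summed signal was 72600, 17500 and 40300 in media, 92400, 25200 and 45500 in wild-type DNA arrays, and 42600, 36300 and 35300 in knockout arrays. In media Smpdl3b was highest in the array where that sum was lowest, and in wild-type DNA arrays it was highest where that sum was highest; the part of these cells in the result was not tested.

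Plekhg1, which encodes a protein with a pleckstrin homology domain, had signals of 403, 312 and 466 in media. Wild-type DNA arrays had 1330, 694 and 941, and knockout DNA arrays 1060, 907 and 1020. Both DNA groups lay wholly above media, and the knockout arrays lay inside the range of the wild-type ones. It was 1.26 ± 0.24 (SE, n = 3 per group) above media in wild-type and 1.32 ± 0.24 in knockout cells. In every array number the gene was at least 0.99 above media in both genotypes. The second probe set of Plekhg1 was dimmer, with 21.1, 84.0 and 86.1 in media, 119, 155 and 176 in wild-type DNA arrays and 63.1, 118 and 148 in knockout DNA arrays. There the differences were 1.18 and 0.73, and the first knockout array lay under 2 of the 3 media arrays.

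**Figure D2:**
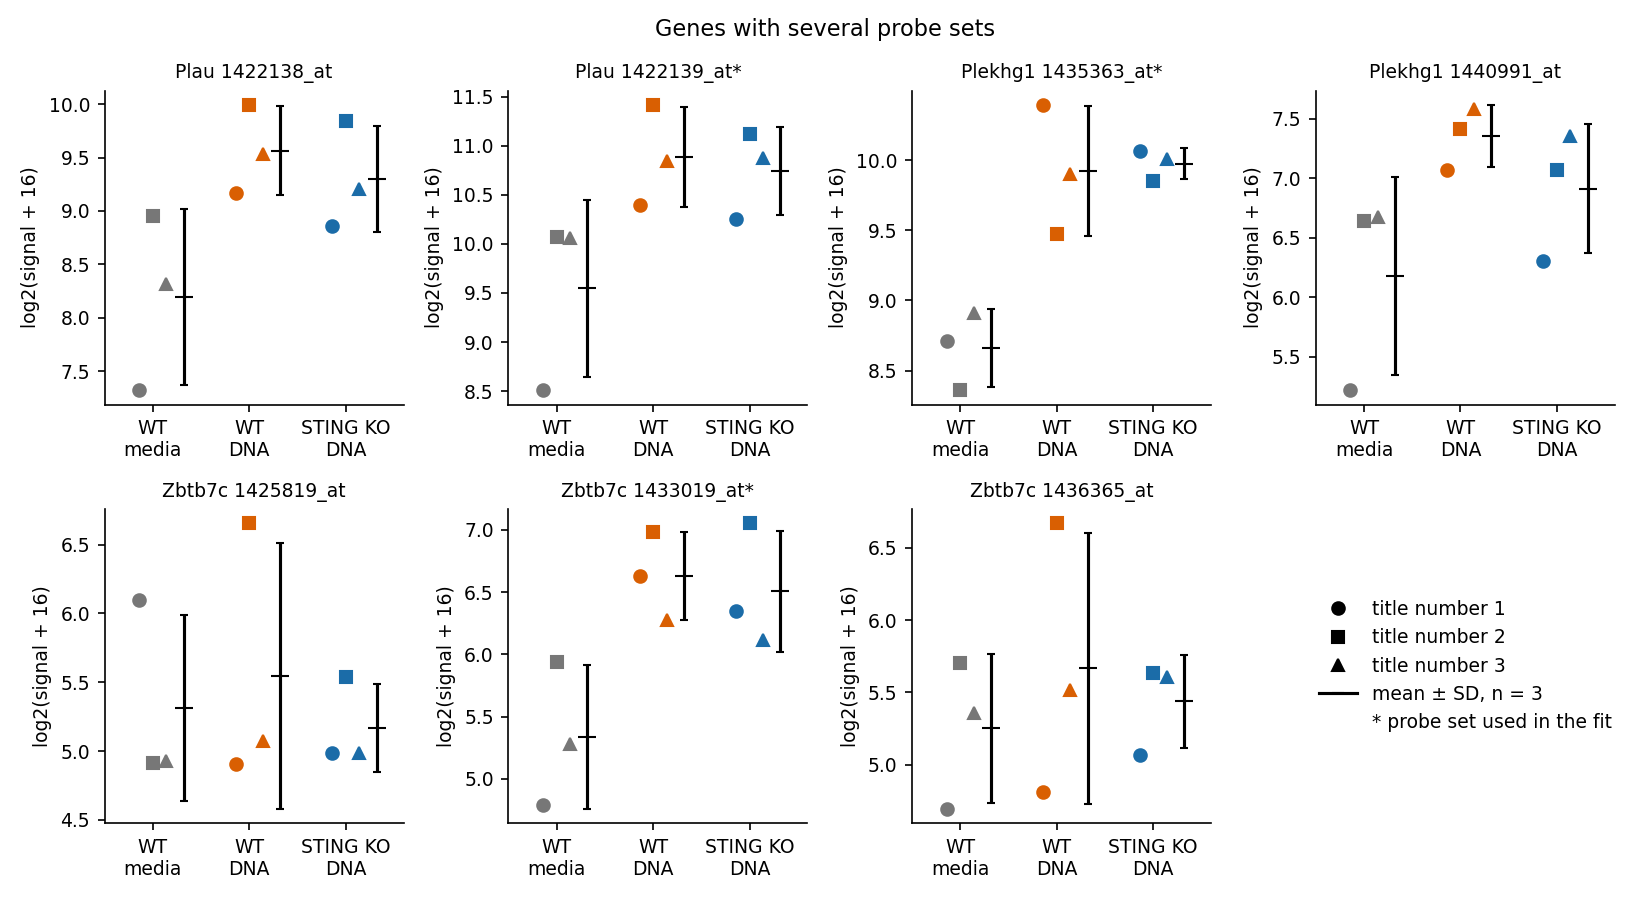
The y axes give log2(signal + 16) of each probe set of Plau, Plekhg1 and Zbtb7c in the 3 groups; points are single arrays, shaped by title number, bars are mean ± SD (n = 3), and a star marks the probe set used in the fit. Both Plau sets have their lowest array in number 1 of each group, and the 2 unstarred Zbtb7c sets overlap across all groups.

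Ifrd1, a co-regulator of transcription that is induced in stress and differentiation, had signals of 1960, 3600 and 3870 in media. Wild-type DNA arrays had 8550, 4660 and 6410, and knockout DNA arrays 5110, 6030 and 7240. All DNA arrays lay above all media arrays, and the DNA groups overlapped. The difference from media was 1.07 ± 0.29 (SE, n = 3 per group) in wild-type and 1.01 ± 0.29 in knockout cells. The first number carried most of the wild-type value: by number it was 2.12, 0.37 and 0.73, and 1.38, 0.74 and 0.90 in knockout cells. Without the arrays of number 1 the mean was 0.55 in wild-type and 0.82 in knockout cells.

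Zbtb7c, a BTB zinc finger transcription factor, and Eno2, the enolase first described in neurons and a glycolytic enzyme, were dim. Their media means on the log2 scale, 5.34 and 5.18, lay under the limit on dim signals (5.67). Both genes thus passed that limit only through the DNA groups, where they are high, and their place in the counts below follows from this. The median signal over all probe sets of an array was 53.7 to 70.9. Zbtb7c had 11.6, 45.3 and 22.8 in media, 83.1, 111 and 61.3 in wild-type DNA arrays and 65.5, 117 and 53.3 in knockout DNA arrays. Media arrays were the lowest, with no overlap, and in each group number 2 was the highest. The difference from media was 1.30 ± 0.38 (SE, n = 3 per group) in wild-type and 1.17 ± 0.38 in knockout cells. The 2 other Zbtb7c probe sets were under the limit on dim signals and overlapped with media in both genotypes, at 0.23 and 0.42 in wild-type and -0.14 and 0.19 in knockout cells. The 3 probe sets of this gene thus disagree, and the pattern rests on 1 of them.

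Eno2 had signals of 16.4, 41.8 and 9.58 in media. Wild-type DNA arrays had 78.1, 55.0 and 54.0, and knockout DNA arrays 68.8, 46.1 and 64.8. No DNA array fell into the media range, but number 2 was close to it, with differences of 0.30 in wild-type and 0.10 in knockout cells. The means were 1.10 ± 0.35 and 1.05 ± 0.35 (SE, n = 3 per group). For these dim genes the offset added before taking logs sets the size: without an offset Eno2 was 1.71 and 1.66 above media, and with an offset of 64 it was 0.56 and 0.53. For Zbtb7c the same offsets gave 1.85 and 1.70, and 0.72 and 0.65.

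**Figure D3:**
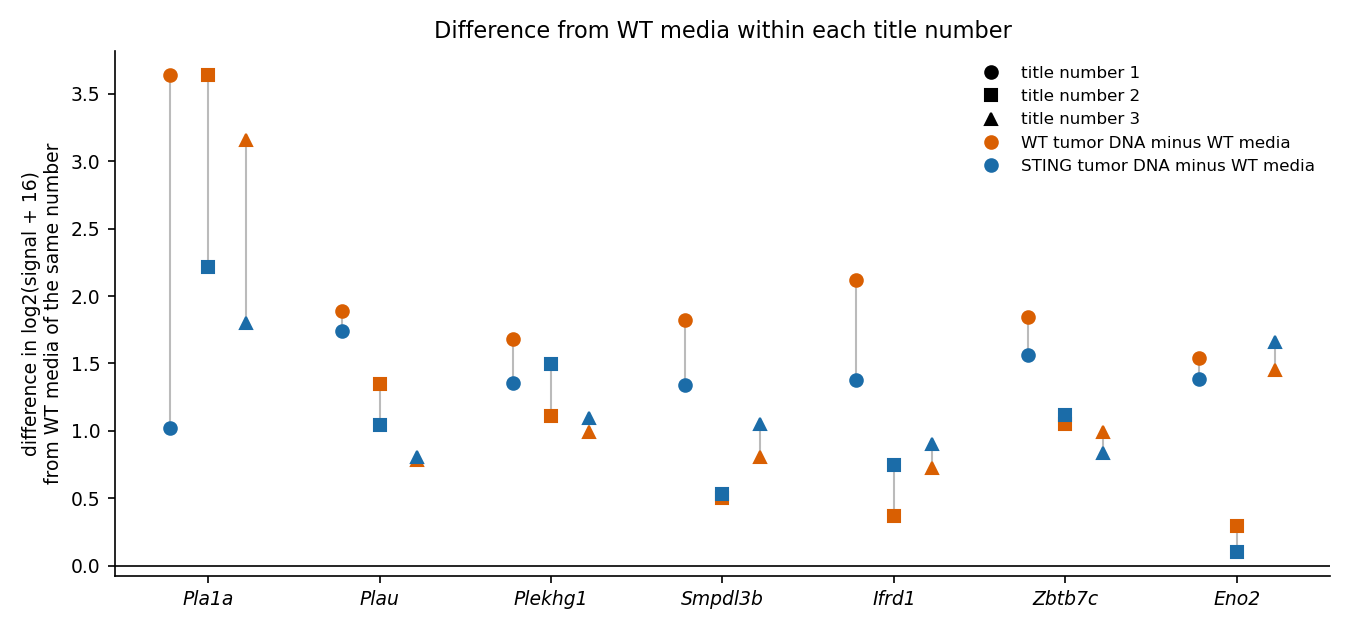
The y axis gives the difference in log2(signal + 16) from the media array of the same title number for each of the 7 genes; colours mark wild-type and knockout cells with tumor DNA, shapes the number, and grey lines join the genotypes within a number. All points lie above 0, the lowest being Eno2 in number 2 (0.30 and 0.10), and among the 3 wild-type points of a gene that of number 1 is the highest, with number 2 equal to it at 3.64 for Pla1a.

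How the choice sits among all genes can be given as counts. A gene is called when limma's moderated test over 12586 genes gave a Benjamini-Hochberg adjusted p under 0.05. In wild-type cells with DNA against media 9.94% of genes were called higher, and all 7 were, as they had been picked there. In knockout cells with DNA against wild-type media 0.167% were called higher, 21 genes, and of the 7 only Pla1a was. With the array number as a block the background was 0.683%, and Pla1a, Plau and Plekhg1 were. As these comparisons chose the genes, nothing is read from the counts. For the other 6, and for 4 with the block, the description as raised without STING rests on the size of the difference and not on that threshold.

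In 15.0% of all genes the wild-type DNA arrays lay wholly above media, as in 6 of the 7, and in 5.93% the knockout DNA arrays did, as in 7 of 7. Both held in 1.57% of genes. The mean was above media in both DNA groups in 22.6% of genes, and 58 genes (0.461%) were at least as far above media in both groups as the lowest of the 7 values. Only 1 gene (0.00795%), Pla1a, was called higher in both comparisons, and 21 (0.167%) were with the block. Outside the 7, among genes called higher in wild-type cells that missed the call in knockout cells with the same sign, Zbtb8a and Spryd7 had the smallest adjusted p; both were called with the block. Zbtb8a had a wild-type difference of 0.96 and a knockout difference of 1.54 (adjusted p = 0.049 by limma with the block). Its signals were 29.7, 12.8 and 30.3 in media, under the limit on dim signals, so it passed only through the DNA groups. Those had 65.8, 59.1 and 57.3 in wild-type and 133, 101 and 70.1 in knockout arrays. For Spryd7 the differences were 1.66 and 0.93. It had signals of 584, 936 and 836 in media, 2720, 2310 and 2380 in wild-type DNA arrays and 1470, 1370 and 1600 in knockout DNA arrays. No threshold of the choice itself is known. The median difference of all genes was -0.20 in wild-type and -0.01 in knockout cells against media, and 0.20 between knockout and wild type. When arrays were instead centred on their median, these became 0.11, 0.03 and -0.06, and the wild-type calls went from 1251 higher and 2973 lower to 2038 higher and 1451 lower.

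The direct comparison of knockout with wild-type cells, both given tumor DNA, sets the 2 genotypes side by side under the same stimulus. Without unstimulated knockout cells, a difference in the response and a difference already there before the DNA cannot be told apart. The comparison is the difference of the 2 that chose the genes and shares their DNA arrays, so a gene near equal in both was bound to come out near 0. Of the 7 genes, 1 was called, against 31.5% of all genes (9.73% lower and 21.8% higher in knockout cells). Pla1a was lower in knockout cells by 1.80 ± 0.28 on the log2 scale (SE, n = 3 per group, 95% interval -2.42 to -1.18, adjusted p = 0.0013 by limma over all genes). That is 0.287 of the wild-type level, and the groups did not overlap; in 14.7% of all genes the knockout arrays lay wholly below the wild-type ones. All 3 numbers had the same direction, at -2.62, -1.43 and -1.36. Marker sums of other cells differed between the same groups. The 8 plasmacytoid dendritic cell markers summed to 5740 to 8380 in media, 19400 to 24900 in wild-type DNA arrays and 3590 to 7240 in knockout arrays. Bst2, also an interferon-induced gene, and Tcf4 made up most of that sum, while the defining markers Siglech (10.4 to 97.5) and Ccr9 (1.54 to 44.4) were dim in all 9 arrays. Mast cell and basophil markers summed to 830 to 1750, 1820 to 3960 and 500 to 836, and T and NK cell markers to 128 to 261, 293 to 522 and 148 to 219. In the mast cell list Hdc was the brightest in wild-type DNA arrays, with 123, 6.58 and 81.0 in media and 2050, 803 and 975 there. Of the 7 tested genes of that list, 1 was called higher there than in media, against 9.94% of all genes. In the T and NK cell list Gzmb (96.5 to 257) and Cd247 (92.7 to 175) were the brightest there. Cd3e (5.79 to 42.5) and Cd3d (2.87 to 27.5) were dim in all 9 arrays. The part of such other cells in the result was not tested. The knockout cells had 48.2% of the wild-type log2 difference from media.

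The other 6 genes were not called, with log2 differences between genotypes of -0.14 to 0.05 and adjusted p of 0.83 to 0.93 by limma. That does not show equality, since the intervals are wide. For Plau the difference was -0.14 with a 95% interval of -1.11 to 0.82, and for Zbtb7c -0.12 with -0.97 to 0.73. For Smpdl3b it was -0.07 (-0.79 to 0.65), for Ifrd1 -0.07 (-0.71 to 0.58) and for Eno2 -0.05 (-0.83 to 0.74). Plekhg1 had the narrowest interval, -0.49 to 0.59 around 0.05. Even there, levels in knockout cells from 0.713 to 1.51 of those in wild-type cells are inside the interval. The signs of these 6 are not settled: Plekhg1 was -0.21 after median centring, Ifrd1 0.10 after quantile normalization, and each of the 6 took both signs when single arrays were left out. All these values are of the brightest probe set of each gene. In a fit over probe sets the second Plekhg1 set was at -0.45 (95% interval -1.37 to 0.47). The second Plau set was at -0.27 (-1.16 to 0.63) there. As shares of the wild-type log2 difference from media, the knockout cells had 89.4% for Plau, 90.4% for Zbtb7c, 93.2% for Smpdl3b, 93.9% for Ifrd1, 95.9% for Eno2 and 104% for Plekhg1. Among these brightest probe sets Pla1a at 48.2% is the lowest. The second sets had 80.6% for Plau and 62.2% for Plekhg1. The 2 other Zbtb7c sets, under the limit on dim signals, had 44.7% and -62.1%, both lower than Pla1a. No error was computed for these shares, which rest on the differences that chose the genes, so nothing is read from the order of the other 6.

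**Figure D4:**
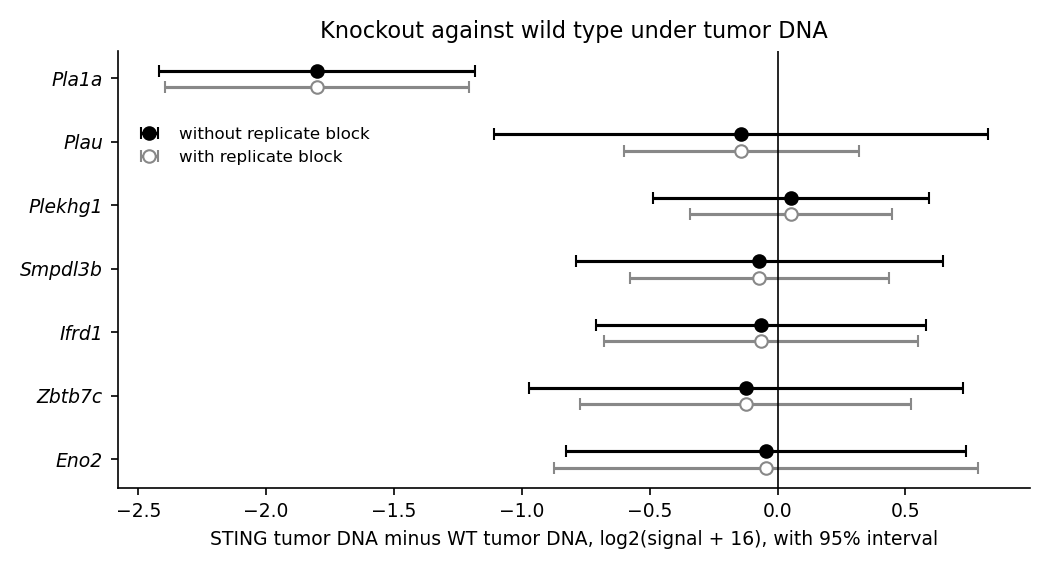
The x axis gives STING knockout minus wild-type cells, both with tumor DNA, in log2(signal + 16) of each gene's brightest probe set. Circles are limma estimates and bars 95% intervals, filled without and open with the array number as a block. Pla1a lies at -1.80 with an interval clear of 0, and the intervals of the other 6 genes span 0 in both fits.

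Over the 9 arrays the 7 genes, all chosen on the same groups, varied together. Pearson's r of log2 signals was 0.55 to 0.95 over the 21 pairs, with a median of 0.75. After group means were subtracted it was -0.51 to 0.88 with a median of 0.24. Smpdl3b and Zbtb7c remained the closest pair at 0.88, both with number 2 highest in media and in knockout arrays, and Plau with Zbtb7c followed at 0.69. Plekhg1 went the other way from Plau and from Zbtb7c (-0.51 each). The points share their arrays and their scaling, so these are descriptions.

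The genes with the most similar profile over the 9 arrays differed from one member to the next. For Pla1a they were Slc15a3 (r = 0.98), which carries histidine and peptides across endosome membranes, Slc3a2 (0.97) and Luzp1 (0.96). For Plau they were Lrrc3b (0.97), the potassium channel Kcnn4 (0.96) and Tm4sf1 (0.96). Lrrc3b and Tm4sf1 were like Plau in size too, at 0.95 and 1.20 above media in wild-type cells and 0.91 and 1.03 in knockout cells. Plekhg1 was closest to Tnfrsf12a (0.96), the receptor of the cytokine TWEAK, followed by Wsb2 and Lrrc8d. Ifrd1 was closest to Zc3h12a (0.98), the RNase that degrades cytokine transcripts, followed by Psmb6 and Ptpre. Zc3h12a was 0.61 above media in wild-type and 0.55 in knockout cells. Smpdl3b was closest to Zbtb7c, Cyth2 and Scx. Zbtb7c was closest to Smpdl3b, Npvf and Zfp236. Eno2 was closest to Anxa4 (0.94), Cd9 and Nras. To the mean of the 7 standardised profiles the closest were Zfp236 (0.95), Gpr107, Rtf2, Spryd7, Zhx3, Dmrt3, Parp3 and Fyn. Of these, Dmrt3 was 1.76 and 1.26 above media in wild-type and knockout cells, and Fyn, a Src family kinase, 1.12 and 0.87.

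The genes around each of the 7, in 7 lists of kin and pathway partners with 176 measured entries, were read in the same fit. In knockout cells with DNA against wild-type media none was called by limma, where 0.429% of all genes were. With the block 2 were called, against 1.40% of all genes. An unadjusted p under 0.05 by limma was found for 22. The share of all genes under that limit was not computed, so nothing is read from the 22. In wild-type cells against media 65 were called, 104 with the block, against 33.6% and 44.8% of all genes. Without the block 9.94% of all genes were higher there and 23.6% lower. Between the genotypes 60 were called, 84 with the block, against 31.5% and 43.0%. Without the block 21.8% of all genes were higher in knockout cells and 9.73% lower. A list whose split is near these shares shows nothing particular to its genes. The scaling of the arrays moves these splits, so for the 6 lists described here both splits are given after median centring too. Every related gene named by its rank kept its sign under quantile normalization and median centring.

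The list around Plau joins genes of plasminogen activation with other serpins, matrix metalloproteases and coagulation genes. Among its 19 measured genes, 6 rose and 2 fell in wild-type cells with DNA (12 and 3 with the block, 8 and 0 with median centring). The 6 were Plat, Serpinb9, Serpinb6b, Mmp13 and, named after their values were seen, Mmp14 and F10. Only Plat of these is a plasminogen activator, so the rise is not one of plasminogen activation as such. The list's median was 0.65 against -0.20 for all genes, and 0.18 against -0.01 in knockout cells. Between the genotypes 1 was higher and 4 lower in knockout cells (1 and 8 with the block, 0 and 6 with median centring). Serpinb9, an inhibitor of granzyme B, had signals of 851, 1090 and 688 in media, 11200, 9390 and 7870 in wild-type DNA arrays and 1220, 1300 and 1720 in knockout DNA arrays. It was higher by 3.43 ± 0.21 in wild-type cells (SE, n = 3 per group, adjusted p = 3.7e-05 by limma). The collagenase Mmp13 rose by 1.55 and differed by -1.36 between knockout and wild-type cells with DNA. Serpinb6b rose by 2.08 and was at 1.05 in knockout cells, where it was not called. Plat, the other plasminogen activator, had 71.2, 49.2 and 56.8 in media, 322, 164 and 136 in wild-type DNA arrays and 77.4, 54.3 and 90.9 in knockout DNA arrays. It differed by -1.24 between the genotypes (adjusted p = 0.017 by limma). Its relative Plau, at -0.14, was chosen for being high in both DNA groups, so no contrast between these genes is read. Plaur, the urokinase receptor, named after its values were seen, was not called, with 0.96 in wild-type and 0.68 in knockout cells against media.

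Of 19 measured lipases, lysophospholipid enzymes and lysophospholipid receptors, the list around Pla1a, 2 rose and 4 fell in wild-type cells (5 and 5 with the block, 4 and 4 with median centring). Not all of these receptors read lysophosphatidylserine. The median was -0.12, and 0.18 with median centring. Between the genotypes 5 were higher and 3 lower in knockout cells, a balance that turned to 0 and 4 with median centring. Gpr34, a receptor for lysophosphatidylserine, fell by 1.87 in wild-type cells: its signals were 384, 121 and 195 in media, 48.4, 46.4 and 42.6 in wild-type DNA arrays and 169, 90.6 and 114 in knockout DNA arrays. Lipg, the endothelial lipase, rose by 1.93 in wild-type cells. Its means in media and in knockout arrays lay under the limit on dim signals, which it passed only through the wild-type DNA arrays. It had 44.8, 33.4 and 20.7 in media, 265, 104 and 163 in wild-type DNA arrays and 25.5, 32.1 and 6.93 in knockout DNA arrays, so here the knockout arrays lay inside or below the media range. The receptor Lpar6 fell by 1.34. Lpar1 differed by -2.05 between knockout and wild-type cells with DNA, its signals being 566, 360 and 451 in media, 941, 527 and 789 in wild-type DNA arrays and 178, 146 and 173 in knockout DNA arrays, which were the lowest.

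Of 28 measured sphingolipid enzymes and receptors, the list around Smpdl3b, 5 rose and 9 fell in wild-type cells (6 and 13 with the block, 6 and 5 with median centring). The median was -0.46 in wild-type and 0.01 in knockout cells against media. Between the genotypes 10 were higher and 5 lower in knockout cells, a balance that turned to 4 and 6 with median centring. Cers5, a ceramide synthase, fell by 1.94 in wild-type cells, and Sptlc2, a subunit of the enzyme that starts sphingolipid synthesis, rose by 1.06. The ceramidase Acer3 rose by 1.09. Asah2 was -1.78 and the sphingomyelin synthase Sgms1 1.41 in knockout against wild-type cells with DNA. Sphk1, named after its values were seen, was at 1.52 in knockout cells against media and was not called (adjusted p = 0.50 by limma). Smpdl3a, the closest relative of Smpdl3b and also named after its values were seen, was not called in any comparison, with -0.51 in wild-type and -0.44 in knockout cells against media.

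Of 27 genes of the integrated stress response with Ifrd2, 9 rose and 5 fell in wild-type cells (10 and 7 with the block, 10 and 2 with median centring). The median was 0.16 in wild-type and 0.12 in knockout cells. Between the genotypes 4 were higher and 7 lower in knockout cells (8 and 7 with the block, 2 and 8 with median centring). Ppp1r15a, the phosphatase subunit that ends the response, rose by 2.02: it had 482, 733 and 540 in media, 4490, 1680 and 1780 in wild-type DNA arrays and 575, 690 and 713 in knockout DNA arrays. The kinase Eif2ak2, an interferon-induced gene, rose by 1.43, and the amino acid transporter subunit Slc3a2 by 0.85. Nupr1 was -2.34 and Ddit3 -1.28 in knockout against wild-type cells with DNA. Ifrd2, the paralog of Ifrd1 named after its values were seen, was 1.58 higher in knockout than in wild-type cells (adjusted p = 0.036 by limma). Ifrd1, chosen for being high in both DNA groups, was at -0.07, and no contrast between these genes is read.

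Of 27 BTB zinc finger genes, 2 rose and 7 fell in wild-type cells (6 and 8 with the block, 5 and 2 with median centring). The median was -0.25, and 0.05 with median centring. Between the genotypes 7 were higher and 2 lower in knockout cells, a balance that turned to 1 and 4 with median centring. Zbtb21 rose by 1.22 and Zbtb5 by 1.21, and Zbtb11 fell by 0.69, a call that median centring lost. Both Zbtb21 (-1.06) and Zbtb5 (-1.18) were lower in knockout cells with DNA, and Zbtb17 was 1.25 higher.

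Of 24 enolase and glycolysis genes, 6 rose and 2 fell in wild-type cells (14 and 4 with the block, 11 and 1 with median centring). The median was 0.41 in wild-type and 0.11 in knockout cells. Between the genotypes 1 was higher and 5 lower in knockout cells (3 and 9 with the block, 1 and 8 with median centring). Hexokinase 3, Hk3, rose by 1.74: it had 3180, 3510 and 3150 in media, 13800, 10400 and 9140 in wild-type DNA arrays and 3650, 3310 and 4050 in knockout DNA arrays. Pfkp rose by 1.35, and Pfkfb3, which makes the activator of phosphofructokinase, by 1.32. Hk3 was -1.58 and the hypoxia factor Hif1a -0.61 in knockout against wild-type cells with DNA. Eno3, the muscle enolase, named after its values were seen, was not called, at -0.35 in wild-type and -0.07 in knockout cells. Eno4, named likewise, was not called either, at 0.65 and 0.68.

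**Figure D5:**
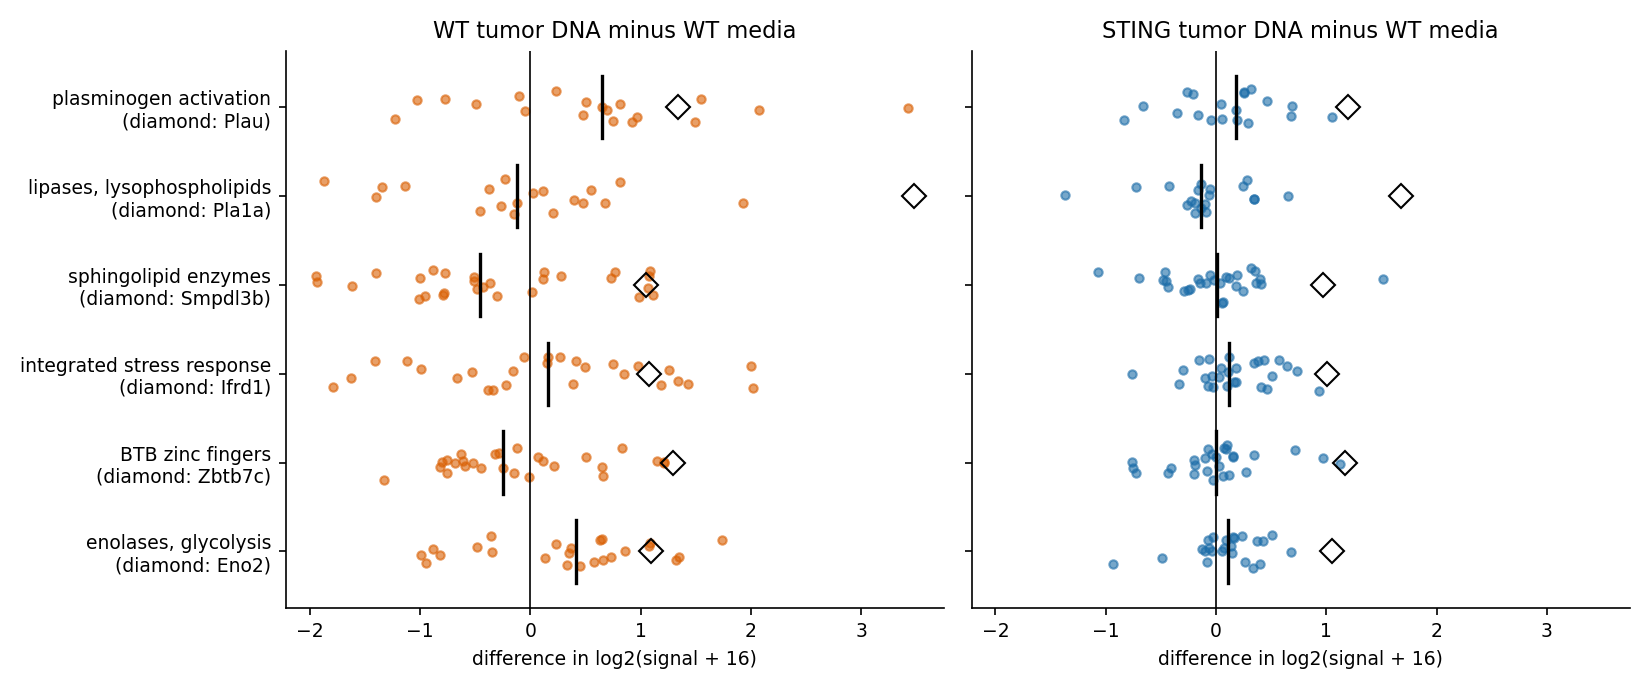
The x axes give the difference in log2(signal + 16) from wild-type media in wild-type (left) and knockout cells (right) with tumor DNA, for each measured gene of 6 related lists (dots), the list's median (bar) and the chosen gene it belongs to (diamond). In knockout cells the medians are -0.14 to 0.18. The diamonds, genes chosen for standing above media, are at 0.97 to 1.68. Both panels share the media arrays.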

How the data were processed

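The deposited values are array signals, linear intensity values per probe set that the authors made with MAS5, per the submitters' processing notes; its version, the genome build and the annotation were not given in the sources used here. MAS5 scales each array to a common trimmed mean (499.8 over the middle 96% of probe sets here), so a shift of all genes cannot be seen. Of 45101 probe sets, 64 controls were left out, and of the others 34945 had 1 gene symbol in the platform annotation, 932 several and 9160 none. Gene names come from probe sets with 1 symbol, and updating against RefSeq changed none of them.

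log2(signal + 16) values of probe sets above the 40th percentile of mean log2 signal (5.67), the brightest per gene, 12586 genes, were fitted over all 9 arrays with limma 3.58.1 (R 4.3.3; lmFit, eBayes with trend) and Benjamini-Hochberg adjustment over all genes. The script was tested on simulated data. Calls needed an adjusted p under 0.05. Array numbers are from the titles and were taken to pair the arrays, since all 9 same-number pairs had residual correlations above 0.1 (0.17 to 0.49, against -0.42 to 0.14 for 18 other pairs); the fit with that number as a block is an alternative. Others were offsets of 0 and 64, no filter, a filter at the 60th percentile, quantile normalization, median centring, the mean of a gene's probe sets, no variance trend, and leaving out each array or number. The 7 genes and the lists were chosen with earlier results of these data known. Named genes are all 7, the 3 called genes of smallest adjusted p per list and comparison, the 3 highest correlations per gene and 8 for the mean profile, and the 2 other genes of smallest adjusted p in knockout cells that were called higher in wild-type cells only; others are said to be named after their values were seen. The results of 1 of the 7 lists are not reported here, though the totals over the lists include it. The number of arrays, 3 per group, limits the precision.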

Additional observations from a re-analysis of the deposited data

How the results depend on the processing

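In the comparison of knockout with wild-type cells under tumor DNA, 1 of the 7 genes, Pla1a, was called under all alternatives run, with a log2 difference of -2.06 to -1.64 over 9 alternatives and -2.02 to -1.39 when an array or an array number was left out (adjusted p by limma at most 0.031). A filter at the 60th percentile left Zbtb7c and Eno2 untested. The count of genes called higher than media in both DNA groups, 1, was the least steady. It was 0 with an offset of 64 and without the filter, 3 with quantile normalization, with the mean of a gene's probe sets or without the variance trend, and 7 with median centring. With the array number as a block it was 21; genes called in knockout cells against media went from 54 to 176 and related genes called from 125 to 190, while it moved the counts of genes called in the other 2 comparisons by less than 1.5 times and changed no call of the 7 between the genotypes.

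When 1 array or 1 number was left out, genes called were 1489 to 4209 in wild-type cells against media (4224 with all arrays), 4 to 129 in knockout cells against media and 1368 to 3930 between the genotypes (3970 with all arrays). Genes called higher in both were 0 to 7 and related genes called 43 to 116. The lowest counts in each comparison came without number 3, which leaves 6 arrays. In knockout cells against media, 18 to 34 genes were called without 1 media array, 129 without the first knockout array, and 24 and 21 without the second and the third. The count of 7 in both came without the first knockout array and without number 1. Of the 7 chosen genes, 7 were called in wild-type cells against media with all arrays, 2 without the first media array (Pla1a and Plekhg1), 3 without number 1 and 1, Pla1a, without number 3. In knockout cells against media Pla1a alone was called with all arrays, none with an offset of 64 or without the filter, and Plekhg1 alone without the first or the second wild-type DNA array; without any 1 media array, the third wild-type DNA array, the second or the third knockout array, number 2 or number 3 none was. Median centring turned the split between the genotypes from 2746 higher and 1224 lower to 1456 and 1805. Dim signals limit Zbtb7c and Eno2.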
